A study of Rattus norvegicus with 102 samples.

Results

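A set of 8 genes used as markers of dentate granule cells, Prox1, Dsp, Nhlh1, Lnp1, Plk5, Tdo2, Trpc6 and Lct, was followed across the hippocampal subfields CA1, CA3 and dentate gyrus (DG) of 34 male Fischer 344 rats. Their Ensembl identifiers in the files are ENSRNOG00000003694, ENSRNOG00000013928, ENSRNOG00000005166, ENSRNOG00000039649, ENSRNOG00000034102, ENSRNOG00000011612, ENSRNOG00000006324 and ENSRNOG00000003681 in that order, all protein-coding. They were picked by symbol and make up 8 of 26284 genes listed in the main table. Nhlh1, Lnp1 and Plk5 were picked because their excess in DG was already known to be large in these libraries, so the DG differences of all 8 genes are given as a description, with no test. The rats had been trained in a water maze, and fell into 10 young animals (5 to 6 months), 12 aged unimpaired animals (AU) and 12 aged impaired animals (AI), the latter both 17 to 22 months old and told apart by a spatial memory probe. The labels name no transgene or drug for any group and spell the strain Fisher 344. Each rat gave 1 piece of CA1, CA3 and DG, dissected by hand, so each library is a mixture of the cell types of that piece. Poly-A RNA of each piece was sequenced on Illumina, which is the main table, and again on Ion Proton, and another deposited table is named WT. Values are normalised reads, which are gene counts divided by a size factor for each library. The Illumina libraries held 3246922 to 42750899 reads on genes, the Ion Proton libraries 4470473 to 21434160 and the WT libraries 3539310 to 20625745.

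Granule cells are the principal neurons of the dentate gyrus. They receive the entorhinal input, send mossy fibres to CA3, and are still being made in the adult brain. Prox1 is a homeobox transcription factor needed for granule cell identity, and Nhlh1 is a basic helix-loop-helix (bHLH) factor of developing neurons. Dsp encodes desmoplakin, which anchors intermediate filaments to cell junctions, and Trpc6 encodes a cation channel opened by diacylglycerol. Plk5 belongs to the polo-like kinases and is known from the brain. Tdo2, the tryptophan dioxygenase at the start of the kynurenine pathway, and Lct, the intestinal lactase, have served as granule cell markers in mice. Little is known of Lnp1.

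The start regions of the marker genes are shown first, because they show how unlike the members are in the sequence before the start of transcription. The RefSeq promoter table (build GRCr8) held 6 of the 8 members, and not Prox1 and Plk5. The reads had been counted on another build, rn5, so these positions belong to GRCr8 alone. The 250 bases before the start are printed in the direction of transcription, with capitals for an E-box, the bHLH recognition letters CANNTG, and for TATAAA, each searched on both strands. Nhlh1, the member with the largest DG excess over CA3, lies on the minus strand at chr13:87054935-87055184. Dsp also lies on the minus strand, at chr17:26877122-26877371. Lct, which had no DG excess in these libraries, lies on the minus strand at chr13:42376873-42377122.
Nhlh1: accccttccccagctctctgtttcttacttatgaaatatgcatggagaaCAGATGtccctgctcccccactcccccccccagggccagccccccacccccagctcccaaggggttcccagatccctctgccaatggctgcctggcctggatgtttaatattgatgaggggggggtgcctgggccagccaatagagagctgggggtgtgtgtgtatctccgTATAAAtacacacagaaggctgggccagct
Dsp: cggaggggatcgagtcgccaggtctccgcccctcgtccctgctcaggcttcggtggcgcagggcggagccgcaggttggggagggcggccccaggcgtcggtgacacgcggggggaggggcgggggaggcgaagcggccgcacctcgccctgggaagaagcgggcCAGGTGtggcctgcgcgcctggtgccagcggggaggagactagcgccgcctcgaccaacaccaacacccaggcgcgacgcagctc
Lct: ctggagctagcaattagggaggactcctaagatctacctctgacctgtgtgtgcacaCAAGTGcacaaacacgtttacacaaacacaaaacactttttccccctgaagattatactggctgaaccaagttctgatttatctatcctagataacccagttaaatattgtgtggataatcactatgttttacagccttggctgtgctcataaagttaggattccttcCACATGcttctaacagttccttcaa

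The Nhlh1 region held 1 E-box and 1 TATAAA and had 58.4% GC. The Dsp region held 1 E-box and no TATAAA, and its GC of 75.2% was higher than in 96.7% of all promoters in the table. The Lct region held 2 E-boxes at 40.8% GC. Of the members not printed, Lnp1 had 3 E-boxes at 30.4% GC, Tdo2 had 1 TATAAA and no E-box, and Trpc6 had neither motif. Over 33469 promoters of this length, 65.5% held an E-box and 12.9% held TATAAA. With only 6 member sequences, a difference of the members from these shares was not tested. A match of these letters is not a measured binding site.

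Before the levels are given, the libraries were checked against their labels with genes that are no members. Each library was scored for known CA1, CA3 and other granule cell genes, and 14 libraries stood nearer to another subfield than to their own label in both poly-A tables. They came from 11 rats and are called displaced libraries here, and the DG ones were from AU rats R2232, R9865 and R9869 and AI rat R9781. Of these, 9 were labelled CA3, 4 DG and 1 CA1, and 13 were from rats with numbers from 9000 upwards (16 rats) against 1 from rats with lower numbers (18 rats). The higher numbers cover 5 young and 11 aged rats, and the lower numbers 5 young and 13 aged rats. The study kept and trained its rats at a pair of sites, in Arizona and Florida, with a different supplier for each, and its split of young and aged rats over the sites has the same sizes. The labels tie no single rat to a site, so whether the number series follows the sites is not known. The series is used here as a split by rat number only. The 15 other granule cell genes entered that score, so leaving the displaced libraries out widens the DG excess partly by construction. The young rat R9881 also stood apart in its CA1 and DG libraries, which were not displaced. All 6 tested members were higher in its CA1 than in its DG, while its score for CA1 genes was 0.74 in CA1 and -1.61 in DG, as labelled, and its score for other granule cell genes was 0.54 in CA1 and -0.38 in DG. All levels below are given with them unless stated otherwise. In DG, 6 of 6 tested CA1 genes were lower than in CA1 by limma, among them Wfs1, Mpped1 and Nov. The CA3 genes separated DG less well, as 5 of 7 tested did not pass between DG and CA3.

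Of the 8 genes, 6 had their highest level in DG, an intermediate level in CA1 and the lowest in CA3, and this order of medians was the same in all 3 tables. Tdo2 and Lct did not show it. In these bulk pieces, fewer cells of a type and less RNA per cell cannot be told apart.

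**Figure D1:**
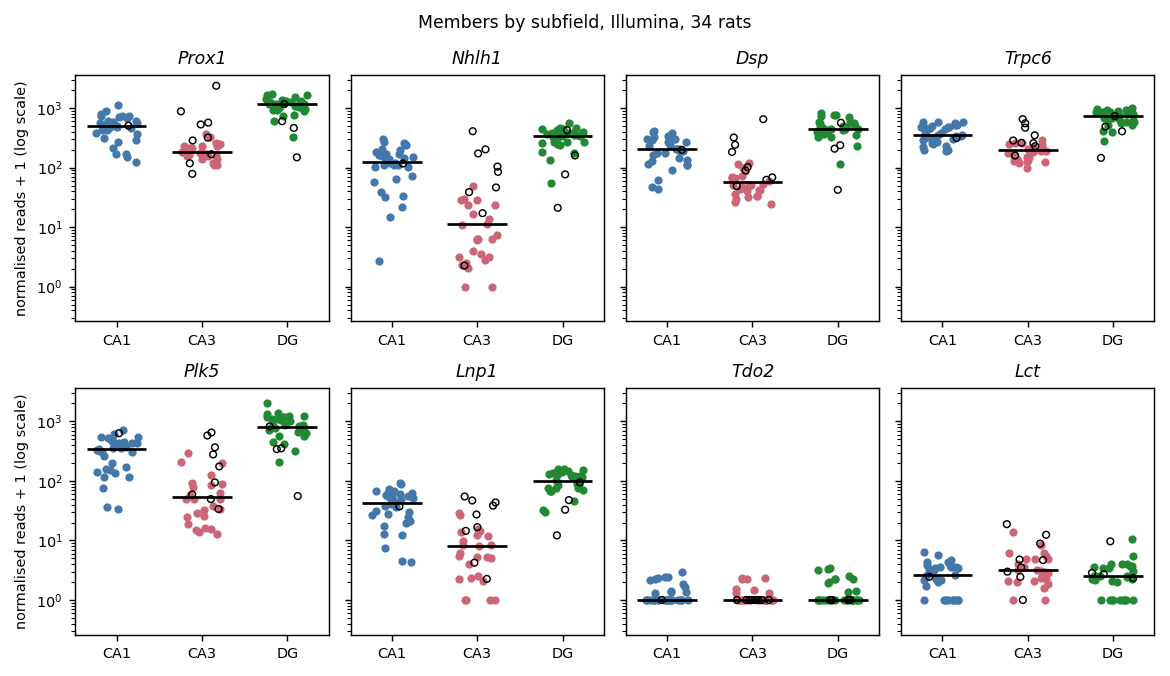
Normalised reads plus 1 on a log scale for the 8 members in 34 CA1, 34 CA3 and 34 DG libraries of the Illumina table, with open black circles for displaced libraries and a bar at the median. The panels of 6 genes step down from DG to CA1 to CA3, while Tdo2 lies near 0 and Lct near 2 in every subfield.

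Prox1, the identity factor, ran from 148 to 1689 normalised reads in DG with a median of 1158. In CA1 it ran from 124 to 1115 (median 505), and in CA3 from 77.6 to 2369 (median 182). The ranges overlapped, and the highest value of all was that of a displaced CA3 library, from AI rat R9875, whose own DG library had 1439. At the other end, the DG library of AI rat R9781, also displaced, had 148, below its CA3 library at 529 and its CA1 library at 881. Without the displaced libraries, CA3 ended at 363 and DG began at 326, so that 29 of 30 DG libraries lay above every CA3 library. That separation is partly by construction, as said above. Prox1 in DG exceeded CA1 by 1.13 on the log2 scale (SE 0.19, log2 of normalised reads plus 1) and CA3 by 2.18 (SE 0.19).

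Nhlh1, the bHLH factor, had the steepest gradient. In DG it ran from 20.1 to 566 normalised reads (median 339), in CA1 from 1.68 to 299 (median 125) and in CA3 from 0 to 408 (median 10.1). In CA3, 10 of 34 libraries had at most 3 reads of it. Without displaced libraries CA3 reached 48.6 and DG began at 55.2, and the groups no longer overlapped. Nhlh1 was picked for its DG excess, and other granule cell genes helped to flag the displaced libraries, so this separation is partly by construction. The share of all genes that separate in this way is not given here. The log2 difference was 1.44 (SE 0.39) from CA1 and 4.47 (SE 0.39) from CA3, which widened to 5.48 (SE 0.34) without the displaced libraries.

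Dsp, the junctional anchor, ran from 41.3 to 823 normalised reads in DG (median 452), from 42.0 to 419 in CA1 (median 203) and from 23.9 to 650 in CA3 (median 55.5). Again the highest CA3 value was in the library of AI rat R9875. The log2 differences were 1.12 (SE 0.22) from CA1 and 2.65 (SE 0.22) from CA3.

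Trpc6, the cation channel, had the shallowest gradient of the 6. It ran from 145 to 999 normalised reads in DG (median 738), from 190 to 591 in CA1 (median 357) and from 98.0 to 650 in CA3 (median 194). No library was near 0 in any subfield. Its log2 differences were 0.83 (SE 0.14) from CA1 and 1.67 (SE 0.14) from CA3.

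Plk5, the polo-like kinase, ran from 54.7 to 2033 normalised reads in DG (median 801), from 32.1 to 729 in CA1 (median 349) and from 11.6 to 649 in CA3 (median 53.4). Lnp1, the gene of little known function, came close to 0 in CA3. It ran from 11.2 to 158 in DG (median 98.3), from 3.36 to 89.7 in CA1 (median 41.4) and from 0 to 53.7 in CA3 (median 7.22), where 13 of 34 libraries had at most 3 reads. The CA3 level of Lnp1 lay within reach of single reads in those libraries. The log2 differences of Plk5 were 1.39 (SE 0.29) from CA1 and 3.48 (SE 0.29) from CA3, and those of Lnp1 were 1.32 (SE 0.30) and 3.53 (SE 0.30).

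Tdo2 was at the floor. It had at most 3 reads in any Illumina library, its median was 0 in each subfield, and its highest value was 2.44 normalised reads in DG. On Ion Proton, 1 of 34 DG libraries had more than 3 reads of Tdo2, with 4. Lct was little higher, with a DG median of 1.52 and a highest DG value of 9.38. Its CA1 libraries had a median of 1.58 and reached 5.41, and its CA3 libraries had a median of 2.18 and reached 17.8. Only 9 of 34 DG libraries had more than 3 reads of Lct, against 10 CA3 and 6 CA1 libraries. Both genes stayed below the mean of 10 normalised reads required for testing. The data thus gave no clear DG excess for these 2 markers, and at such low read numbers a difference could have gone undetected in both. On Ion Proton the mean of Tdo2 was 0.66 in DG, 0.20 in CA1 and 0.08 in CA3, all near the floor.

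Each rat served as its own reference in a second view of the gradient. Within a rat, DG exceeded both CA libraries in 28 of 34 rats for Prox1, Trpc6, Plk5 and Lnp1, in 29 for Dsp and in 27 for Nhlh1. The median CA1 level, as a percent of the same rat's DG, was 45.7 for Prox1, 37.9 for Nhlh1, 42.3 for Dsp, 51.2 for Trpc6, 37.1 for Plk5 and 38.4 for Lnp1. For CA3 the spread among members was wider, from 3.48% for Nhlh1 and 5.88% for Lnp1 over 6.99% for Plk5, 11.9% for Dsp and 18.1% for Prox1 to 26.9% for Trpc6. The members were close to each other in CA1 relative to DG, and far apart in CA3. Nhlh1, Lnp1 and Plk5, the lowest in CA3, were picked for their DG excess, so this spread was partly set by the choice. In CA3, Nhlh1 had at most 3 reads in 10 of 34 libraries and Lnp1 in 13. Among the 23 rats with no displaced library, DG exceeded CA3 in 23 of 23 for all 6 genes and CA1 in 22, or 21 for Nhlh1. For Prox1 the 1 exception to CA1 was rat R9872, with 1115 normalised reads in CA1 and 616 in DG. The young rat R9881, whose CA3 library is displaced and which is not among the 23, also had more Prox1 in CA1 (726) than in DG (326).

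**Figure D2:**
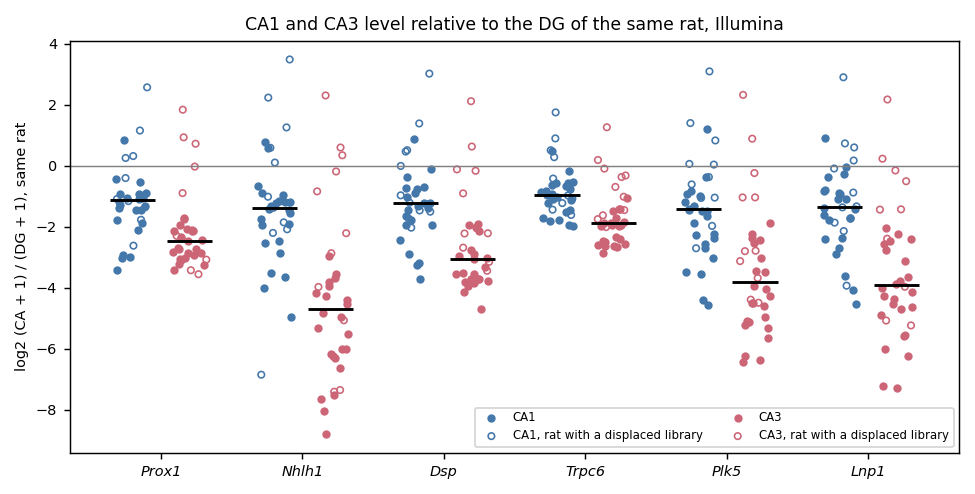
Log2 ratio of the CA1 (blue) or CA3 (red) level to the DG level of the same rat, each with 1 added, for 6 members in 34 rats of the Illumina table, with open circles for rats that have a displaced library and a bar at the median. CA1 medians lie at similar depth for the 6 genes, and CA3 medians fall from Trpc6 to Nhlh1.

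The Ion Proton and WT tables come from the same rats and gave like sizes. Over the 6 members, the median log2 difference of DG from CA1 was 1.23 in the Illumina table, 1.20 in the Ion Proton table and 1.35 in the WT table. From CA3 the medians were 3.06, 3.09 and 2.85. Without displaced libraries the DG difference from CA1 was 1.28 for Prox1, 1.64 for Nhlh1, 1.27 for Dsp, 0.92 for Trpc6, 1.61 for Plk5 and 1.49 for Lnp1. From CA3 these were 2.58, 5.48, 3.18, 2.01, 4.13 and 4.18 in the same order. For all genes tested in the Illumina table, the 2 medians were -0.00 and -0.01. As background for the other lists, 26.7% of 14179 genes were higher and 29% lower in DG than in CA1 (55.6% in either direction), and 26.7% were higher and 28.9% lower than in CA3 (55.6% in either) by limma. No test of the members is set against these shares, since 3 of them were picked for their DG excess and the rest as known granule cell markers with these values in view.

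**Figure D3:**
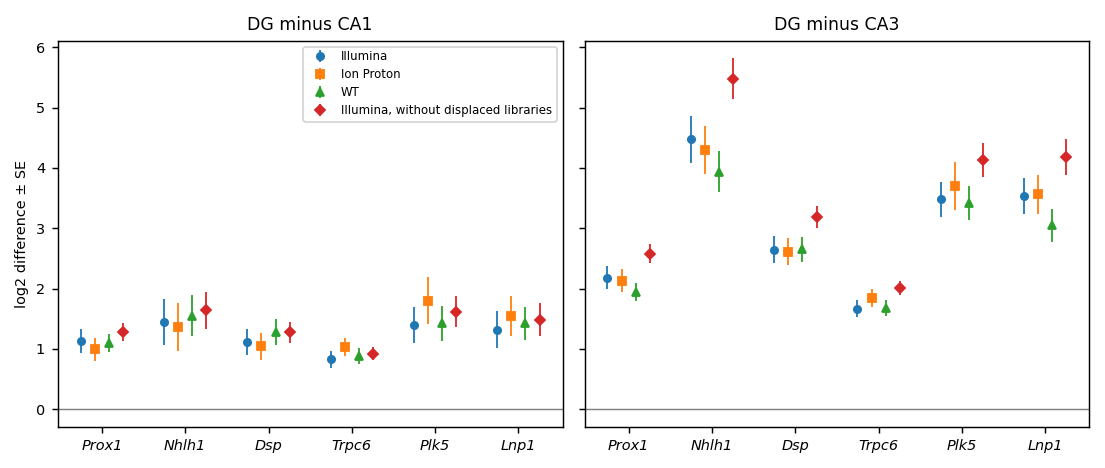
Log2 difference (± SE) of DG from CA1 (left) and from CA3 (right) for 6 members in the Illumina, Ion Proton and WT tables and in the Illumina table without displaced libraries. All points lie above 0, and the differences from CA3 are larger without displaced libraries, reaching 5.48 for Nhlh1.

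The step between CA1 and CA3 was tested for the 3 members above the filter that were not picked for a DG excess. They too were chosen with the subfield values in view, so these p-values are no independent support. Prox1 was higher in CA1 by 1.05 (SE 0.19, limma adjusted p = 5.38e-06), Dsp by 1.53 (SE 0.22, adjusted p = 7.84e-09) and Trpc6 by 0.84 (SE 0.14, adjusted p = 2.52e-07). For these 3 of 3, the background was 18.3% of 14179 genes higher in CA1, 17.1% lower and 35.4% in either direction, and nothing is read from the comparison. Within rats, CA1 exceeded CA3 in 29 of 34 rats for Prox1 and in 30 for Dsp and Trpc6. All 3 calls held in the Ion Proton and WT tables, which hold the same rats. They also held without displaced libraries, where the differences were 1.30, 1.91 and 1.09. Those libraries were flagged by CA1, CA3 and granule cell genes, so this widening is partly by construction. Nhlh1, Plk5 and Lnp1, given without a test, were higher in CA1 by 3.03, 2.08 and 2.21. Other granule cell genes moved with this step, as 11 of 15 were higher in CA1 than in CA3 and 1 was lower. Their summed level ran from 6425 to 15352 normalised reads in CA1 (median 11785), from 5525 to 18521 in CA3 (median 6662) and from 6125 to 24846 in DG (median 18471), with no gene at a median of 0. Their part in the CA1 levels of the members was not tested.

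Genes known from the same cells or families give the setting. Of 15 other granule cell genes, 12 were higher in DG than in CA1 and 14 higher than in CA3, with medians of 0.66 and 1.11 on the log2 scale. Dock10, a guanine exchange factor, rose from 1890 ± 452 normalised reads in CA1 and 1433 ± 674 in CA3 to 2988 ± 692 in DG (SD, n = 34). Pdyn, which encodes the opioid precursor prodynorphin, was at 978 ± 479, 377 ± 403 and 2115 ± 741. Cald1 was the 1 gene of that list lower in DG than in CA1 (log2 difference -0.36, adjusted p = 0.00388, limma), named after its values were seen. Lists for other cells differed in direction. Between DG and CA1, 6 of 6 microglial, 6 of 6 oligodendrocyte and 5 of 6 meningeal genes were lower in DG, and between DG and CA3 the counts were 6, 6 and 3. The mossy cell list, hilar neurons within the DG piece, had 1 of 6 genes higher in DG than in CA1 and 4 lower, and 1 higher and 5 lower than in CA3. The newborn neuron list had 1 of 7 higher and 2 lower against CA1, and 0 higher and 5 lower against CA3. Of the CA3 pyramidal genes, 4 of 7 were higher in DG than in CA1 and 1 was lower, and of the CA2 genes 1 of 4 was higher and 2 were lower. All 5 endothelial genes were lower in DG than in CA1, while 3 of 6 astrocyte, 3 of 5 interneuron, 3 of 6 choroid plexus and 2 of 4 ependymal genes were lower and the others did not pass.

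The families of the members were mixed in direction. Among 4 tested desmosome genes beside Dsp, 3 were lower in DG than in CA1 and 1 was higher, and against CA3 3 were lower. Pkp4, a plakophilin that binds junctional cadherins, was at 6485 ± 1384 normalised reads in CA1 and 5040 ± 1011 in DG, and Jup, which encodes plakoglobin, at 794 ± 66.4 and 659 ± 86.5. Of the 5 other Trpc channels, 2 were higher and 3 lower in DG than in CA1, and against CA3 1 was higher and 1 lower. Trpc4 differed from CA1 by -0.46 on the log2 scale (adjusted p = 4.65e-05) and Trpc5 by 0.23 (adjusted p = 0.0456), both by limma. Of 4 other polo-like kinases, 3 were lower in DG than in CA1 and 2 lower than in CA3, and Plk2, an activity-regulated kinase, was at 2905 ± 590 in CA1 and 1719 ± 282 in DG. Among bHLH genes, 2 of 5 tested were higher in DG than in CA1 and 1 was lower, and against CA3 3 were higher and 1 was lower. Bhlhe22, a factor of cortical and hippocampal neurons, was higher in DG by 0.63 than in CA1 (adjusted p = 4.23e-05, limma) and by 0.98 than in CA3 (adjusted p = 8.1e-10). Of 5 tested genes of tryptophan breakdown besides Tdo2, 4 were lower in DG than in CA1 and 0 higher, and 3 were lower than in CA3. The 3 genes with the highest DG level, Ccbl1, Aadat and Afmid, were lower in DG than in CA1 by 0.19 to 0.28 on the log2 scale.

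The genes whose pattern over all libraries of the 3 subfields was most like the mean of the 6 members were named by the lower of their Illumina and Ion Proton correlations, as a description. Out of 13884 genes these were Pdyn (r = 0.97 and 0.96), Tiam1, a Rac exchange factor (0.97 and 0.94), Piezo2, a mechanosensitive channel (0.94 and 0.94), Smad3, a transducer of TGF-beta signals (0.96 and 0.93), and Tle1, a corepressor (0.93 and 0.93). The points share rats and subfields and are no independent samples. Over the 34 DG libraries alone, the 5 leading genes were Stxbp6, Fat4, Sema5a, Ccdc85a and Svep1, with correlations of 0.93 to 0.97. Without the 4 displaced DG libraries the leading genes were Cemip, Stxbp6, Smpdl3b, Zmat4 and Svep1, so that Fat4, Sema5a and Ccdc85a were no longer among them. Between each member and the mean that included it, r over the 34 DG libraries was 0.95 to 0.99 on Illumina and 0.88 to 0.95 on Ion Proton. Without the displaced libraries it was 0.90 to 0.98 and 0.76 to 0.93, with Plk5 the lowest in both tables.

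The next question was whether the markers changed with age or with memory status. Neither was named as a reason for their choice, but the members were chosen with earlier results of these data known. None of the 6 tested members passed in any subfield, in aged against young or in AI against AU. In these 36 member tests the smallest unadjusted p was 0.111, the smallest adjusted p was 0.958 (limma) and the largest log2 difference in size was 0.59. Among all genes, 0.338% passed for age in CA1 and 0.3% in DG, against 0% in CA3, and 0% for cognition in each subfield. At an unadjusted p under 0.05, 6.15%, 3.31% and 5.2% of genes differed with age in CA1, CA3 and DG and 5.71%, 1.4% and 3.85% with cognition, and 0 of 6 members did in any subfield. edgeR and DESeq2 called 0 of 6 as well.

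In DG, Prox1 ran from 326 to 1651 normalised reads in young rats (median 1227), from 462 to 1689 in AU (median 1168) and from 148 to 1439 in AI (median 1050). Nhlh1 ran from 55.2 to 444 (median 359), from 75.8 to 566 (median 366) and from 20.1 to 465 (median 286). The 3 groups overlapped along nearly their whole range for both factors. Dsp ran from 114 to 564 (median 433) in young, from 207 to 823 (median 497) in AU and from 41.3 to 732 (median 472) in AI. Trpc6, Plk5 and Lnp1 had medians of 694, 704 and 79.2 in young, 745, 863 and 109 in AU and 728, 795 and 97.4 in AI. The aged medians of these 4 genes were above the young ones, and the groups again overlapped.

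**Figure D4:**
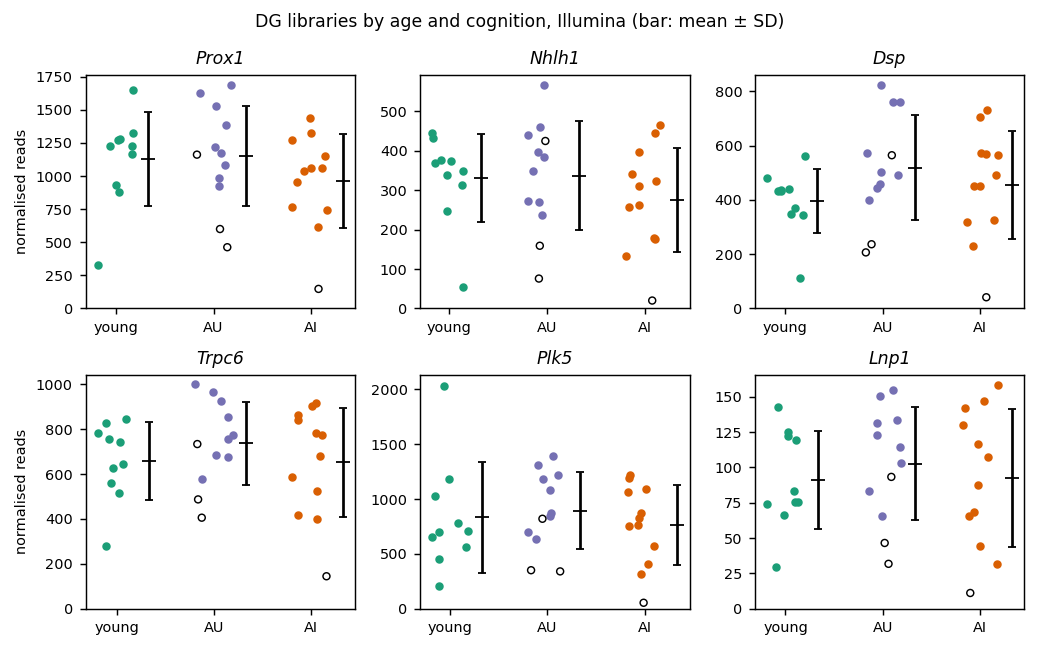
Normalised reads of 6 members in the DG libraries of 10 young, 12 AU and 12 AI rats of the Illumina table, with open circles for displaced libraries and a bar for mean ± SD. The groups overlap in each panel, and the lowest AI value is the displaced library of rat R9781.

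Aged minus young in DG was -0.13 for Prox1 (SE 0.25), -0.19 for Nhlh1 (SE 0.35), 0.21 for Dsp (SE 0.30), 0.04 for Trpc6 (SE 0.21), -0.01 for Plk5 (SE 0.34) and 0.00 for Lnp1 (SE 0.30), each on the log2 scale. The 95% interval was narrowest for Trpc6, from -0.36 to 0.44, and widest for Nhlh1, from -0.87 to 0.50. Without the young rat R9881 the differences were -0.31 for Prox1, -0.45 for Nhlh1, 0.02 for Dsp, -0.09 for Trpc6, -0.20 for Plk5 and -0.16 for Lnp1, and none passed (limma, smallest adjusted p = 0.853). In CA1 the differences ran from -0.40 to 0.09, and in CA3 from -0.04 to 0.48. AU and AI share the young rats as controls, so their values are given side by side. AU minus young in DG ran from 0.02 for Nhlh1 to 0.37 for Dsp, and AI minus young from -0.39 for Nhlh1 to 0.04 for Dsp. None passed by limma (smallest unadjusted p over the subfields 0.145), where 0.107% and 0.228% of all genes did in DG.

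AI minus AU in DG was below 0 for 6 of 6 tested members, from -0.27 for Trpc6 (SE 0.23) to -0.42 for Nhlh1 (SE 0.39), and none passed (smallest unadjusted p = 0.238, adjusted p = 0.999, limma). The 6 genes vary together, so these are not 6 separate signs. Their median was -0.33, against -0.20 for the 15 other granule cell genes and -0.33 for the CA1 genes. It was 0.23 for the CA3 genes and -0.00 for all genes. A value below 0 was thus not particular to the members. Without displaced libraries the differences ran from -0.23 for Trpc6 to -0.38 for Plk5, and that of Prox1 was -0.33 (SE 0.14, unadjusted p = 0.0325, adjusted p = 0.823, limma). In rats numbered below 9000 they lay between -0.19 and 0.05, and in rats numbered from 9000 between -0.61 and -1.04, with no call in either, and the difference between the series was not tested. Of the 11 aged DG libraries of the higher numbers 3 were displaced, among them that of R9781, and without these 3 the differences lay between -0.25 for Dsp and -0.66 for Lnp1. In CA1 the differences ran the other way, from 0.17 to 0.59. The difference between the subfields in the effect of age or cognition passed for 0 of 6 members in each of 6 comparisons (smallest unadjusted p = 0.132, limma), where 0% of all genes passed.

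Much of the spread of the members in DG followed the other granule cell genes. The mean standardised level of the 15 other granule cell genes was added to the fit as a covariate. Dsp was then higher in aged than in young DG by 0.41 on the log2 scale (SE 0.08, adjusted p = 0.00505, limma), where 0.642% of 14019 genes passed. It was the only 1 of the 6 members to pass, but the difference between Dsp and the other members was not tested. Calls were also gained in this fit by 1 of 15 other granule cell genes, 1 of 6 mossy cell genes and 1 of 4 genes of tryptophan breakdown, where none was called without the covariate. Trpc6 was at 0.18 (SE 0.07, adjusted p = 0.421) and Prox1 at 0.05 (SE 0.07, adjusted p = 0.963). Without the covariate Dsp was at 0.21 and did not pass, at 0.45 without displaced libraries (adjusted p = 0.791, limma) and at 0.02 without rat R9881, so the call rests on that adjustment. The call held without displaced libraries (0.44, adjusted p = 0.000296) and without the young rat R9881 (0.46, adjusted p = 0.00467). It did not pass in the Ion Proton table (0.25, SE 0.13, adjusted p = 0.524) or in the WT table (0.47, SE 0.11, adjusted p = 0.0886). Within rats numbered below 9000 the difference was 0.49 (adjusted p = 0.135), and within those from 9000 it was 0.37 (adjusted p = 0.362). With the same covariate Dsp was at 0.36 in CA1 (adjusted p = 0.229) and at 0.39 in CA3 (adjusted p = 1).

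**Figure D5:**
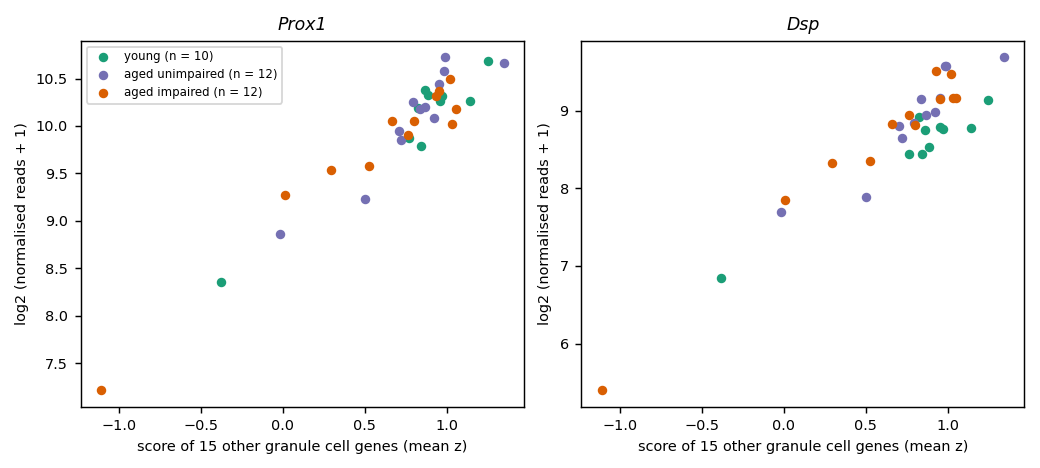
Log2 of normalised reads plus 1 for Prox1 (left) and Dsp (right) against the mean standardised level of 15 other granule cell genes in 34 DG libraries of the Illumina table, coloured by group. Young and aged libraries intermingle for Prox1, while for Dsp most aged libraries lie above the young ones at the same score.

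Dsp was also set against Prox1 in each library, without a model. In DG, Dsp as a percent of Prox1 ran from 28.8 to 41.4 in young rats (median 35.3), from 37.6 to 50.6 in AU (median 44.9) and from 28.0 to 57.5 in AI (median 42.9). In both aged groups, 10 of 12 libraries lay above the highest young one. In the Ion Proton table the medians were 42.7, 51.5 and 54.2, with 6 and 7 of 12 above the highest young library, and in the WT table they were 36.5, 50.3 and 51.7, with 7 and 6 of 12. In CA1 the Illumina medians of Dsp were 37.2 in young, 44.3 in AU and 47.8 in AI, with 6 and 7 of 12 libraries above the highest young one. There the Ion Proton counts were 5 and 7 of 12 and the WT counts 6 and 6. In CA3 the Illumina values ran from 14.2 to 40.9 in young, from 15.6 to 79.2 in AU and from 14.1 to 54.0 in AI, with 3 and 2 of 12 above the highest young library, and the counts were 1 and 3 on Ion Proton and 3 and 6 in WT. Trpc6 as a percent of Prox1 in DG had 1 and 1 of 12 above the highest young library on Illumina, 0 and 0 on Ion Proton and 4 and 4 in WT. For Nhlh1 the counts in the same order were 2 and 0, 4 and 3, and 1 and 0. Those of Lnp1 were 0 and 2, 0 and 1, and 5 and 2, and Plk5 had 0 and 0 throughout. These ratios were chosen after the values had been seen and carry no test. Dsp is also known from meningeal and other epithelium-like cells. In DG, 0 of 6 meningeal genes passed for age, with or without the covariate. Their summed level ran from 171 to 789 normalised reads in young (median 398) and from 113 to 703 in aged rats (median 396), with no gene at a median of 0, and 0 of 4 other desmosome genes passed. Of 6 microglial genes 3 were higher in aged DG, and of 6 astrocyte genes 1, in either fit. The part of these cells in the shift of Dsp was not tested.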

How the data were processed

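The members were Prox1, Dsp, Nhlh1, Lnp1, Plk5, Tdo2, Trpc6 and Lct, and members and gene lists were chosen with earlier results of these data known. The deposited signal values are gene counts that the authors divided by a size factor for each library. Per the labels, the submitters' processing notes name the rn5 build, STAR 2.5, featureCounts 1.4.4 and DESeq2 1.16.1, and the study aligned Ion Proton reads with TopHat2. Labels and study name different kits, so strand use in counting is not known, and the kind of library behind the WT table is not given in the sources used here. Whole reads were recovered for 100% of values above 0, within 0.01 of a read.

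Differences were fitted by limma-trend (limma 3.58.1 in R 4.3.3) after a log2 transform with 1 added, for genes with a mean of at least 10, and Benjamini-Hochberg adjustment over all genes tested. A gene was called at an adjusted p under 0.05. edgeR 4.0.16 and DESeq2 1.42.0 were run on the recovered reads as alternatives. The fits were also run on simulated data to check the code, and no result is drawn from that run. At most 3 reads in a library was taken as the floor. Libraries of a group come from different rats. The 3 libraries of a rat share its number, and their deviations from group means correlated with a median r of 0.10, against -0.00 between rats. The covariate of other granule cell genes was named with the design, and its repeats in other tables and subsets were chosen after seeing the data, as were the fits without rat R9881 and without displaced libraries within the higher rat numbers. All 8 members, at most 3 genes of each other list by DG level, and the 5 genes most like the members were named. Cald1 and Bhlhe23 were named besides, after their values were seen.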

Additional observations from a re-analysis of the deposited data

Results flagged for a closer look

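In 24 sets of 10 young libraries (8 genes in 3 subfields), 4 had a library far from the others in the Illumina table, where chance flags about 1 set in 20. The DG library of rat R9881 was low for Dsp, at 114 normalised reads against 345 in the next library, and for Nhlh1, at 55.2 against 246. The CA1 library of the same rat was high for Nhlh1, at 263 against 161. For all 6 tested members this rat's DG library lay below the CA1 median of the table and its CA1 library above it. Tdo2 in CA3 of rat R2176 was at 1.29 against 0.447, which lies at the floor of 3 reads.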

How the results depend on the processing

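Of 875 recomputed values of single members with a test, 193 had the other sign than in the report, 8 of them with an unadjusted p under 0.05 and none with a call. The count of members called for age in DG went from 0 to 1, Dsp, with the score of other granule cell genes as covariate, and stayed at 1 when displaced libraries or rat R9881 were left out as well. The 8 were, with that score in the fit, for age, Plk5 in CA1 (0.57, rats below 9000), Trpc6 in CA1 (0.26 in the same rats and 0.15 in the WT table) and Nhlh1 in DG (0.29, rats from 9000), and for cognition, Prox1 in CA1 (-0.18, rats below 9000) and in CA3 (-0.49, rats from 9000). Nhlh1 in CA3 turned to -1.25 for cognition in the Ion Proton table with its score, and to -1.69 there without displaced libraries. The cause was not tested.

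The median DG difference over the 6 members ran from 1.14 (DESeq2) to 1.38 (without displaced libraries) against CA1, and from 2.59 to 3.66 against CA3. The replicate block on the rat gave 1.23 and 3.06, left 3 of 3 calls between CA1 and CA3 and changed no other call. Few reads limit what can be said of Tdo2 and Lct, and of Lnp1 and Nhlh1 in CA3.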
